A study of Mus musculus with 6 samples.

Results

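Interferon-response genes are the transcripts that cells switch on when an interferon binds its receptor. The 35 genes described here were taken by symbol from the 24315 rows of an expression table of mouse hearts, and every one of the 35 had a row. They comprise 4 transcription factors, 22 genes known chiefly as targets of type I interferon and 9 GTPases known chiefly as targets of interferon gamma. The hearts came from male C57Bl6J mice aged 6 weeks. In 3 mice the cyclin C gene was floxed on each allele with no Cre (fl/fl), and 3 mice had the same floxed alleles and a Cre recombinase driven by the aMHC promoter, a promoter of heart muscle cells (cKO). Cre was absent from the fl/fl hearts, so Cre and the deletion cannot be told apart. Cyclin C partners CDK8 or CDK19 in a kinase module that docks on Mediator, which links transcription factors to RNA polymerase II. Polyadenylated RNA of whole hearts was sequenced, and the deposited values are FPKM, fragment counts scaled by transcript length and library size.

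Type I interferons signal through a receptor made of IFNAR1 and IFNAR2 to a complex that holds STAT2 and IRF9 and binds the interferon-stimulated response element in target promoters. Interferon gamma signals through IFNGR1 and IFNGR2 to target promoters that hold the gamma-activated site. Many targets respond to each kind of interferon, so the division into type I targets and interferon gamma GTPases follows the better known inducer and is not exclusive. In heart tissue, endothelial cells and resident macrophages are known sources of such transcripts beside the muscle cells. In whole-heart values, fewer cells of a type and less RNA per cell cannot be told apart.

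To show what the genes share in sequence, promoter windows from RefSeq (build GRCm38.p6, 250 bases before to 50 bases after each start) were matched by symbol for 25 of the 35 genes. The stretches below are the 140 bases before the start on the gene's own strand for 5 of them. They were chosen to show a type I pair and a set of GTPases with the first motif below or with both. Capitals mark matches, on either strand, to GAAA followed after any 2 bases by GAAA (the ISRE, for interferon-stimulated response element) or to TTCNNNGAA (the GAS, for gamma-activated site, which reads the same on each strand).
Isg15 (chr4:156200819-156200958, minus strand): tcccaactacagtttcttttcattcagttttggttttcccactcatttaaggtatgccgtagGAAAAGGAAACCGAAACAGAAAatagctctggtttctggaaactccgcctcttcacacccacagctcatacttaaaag
Rsad2 (chr12:26456453-26456592, minus strand): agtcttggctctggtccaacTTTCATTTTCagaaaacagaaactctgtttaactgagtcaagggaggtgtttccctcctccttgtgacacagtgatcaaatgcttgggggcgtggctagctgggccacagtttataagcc
Gbp3 (chr3:142559904-142560043, plus strand): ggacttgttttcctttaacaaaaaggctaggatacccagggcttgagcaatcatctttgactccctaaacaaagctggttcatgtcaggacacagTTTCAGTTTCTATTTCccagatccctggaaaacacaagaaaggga
Gbp7 (chr3:142530196-142530335, plus strand): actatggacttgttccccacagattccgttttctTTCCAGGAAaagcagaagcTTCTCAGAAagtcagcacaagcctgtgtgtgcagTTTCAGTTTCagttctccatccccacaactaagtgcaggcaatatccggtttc
Irgm1 (chr11:48871421-48871560, minus strand): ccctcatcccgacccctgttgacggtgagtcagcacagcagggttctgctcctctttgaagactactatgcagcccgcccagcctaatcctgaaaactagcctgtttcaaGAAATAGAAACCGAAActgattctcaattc

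The runs of capitals in Isg15, Gbp3 and Irgm1 are overlapping ISRE matches, whereas in Gbp7 a pair of GAS matches lies upstream of a single ISRE match. An ISRE match occurred in a window of 16 of the 25 matched genes (64%), against 3.99% of the 27025 genes with a window. All 6 of the matched GTPases (Gbp2, Gbp3, Gbp5, Gbp7, Igtp and Irgm1) and 9 of the 15 matched type I targets held it. A GAS match occurred in 8 of the 25 (32%), against 9.55% of all genes, and was present in 3 of the 6 GTPases, 4 of the 15 type I targets and in Irf1 among the factors. The 5 genes with a match to each motif were Gbp5, Gbp7, Igtp, Oas1a and Bst2, a share of 20% against 0.614% of all genes. A match describes letters in a window and is not a measured binding site.

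Some libraries stood apart. The targeted gene Ccnc read 8.48, 7.6 and 10.8 FPKM in fl/fl 1 to 3, against 5.81, 5.7 and 4.53 in cKO 1 to 3. The groups did not overlap, as for 10.3% of all genes tested that lay lower in cKO. Its difference was -0.65 on the log2(FPKM + 1) scale (SE 0.15). Neither limma (adjusted p = 0.144) nor the authors' deposited table (q = 0.161) called it. In a gene-level value, transcripts with and without the deleted part are not told apart. Read totals are unknown. By the most frequent ratio between low values of the same gene, the other libraries were estimated at 0.883 to 1.09 times as deep as fl/fl 1. Only 122 to 241 of the 1172 to 1263 genes compared per library held that ratio, so the estimate is rough. The summed thymocyte markers (4 genes) reached 32.7 FPKM in fl/fl 1, with 1.01 FPKM the highest of the others. The summed lung markers (4 genes) reached 18.3 (fl/fl 2) and 4.07 FPKM (fl/fl 1), with 0.353 FPKM the highest of the others. Adipocyte markers (4 genes) summed to 389.4 FPKM in fl/fl 1 and to 16.9 FPKM or less in the others. Replicate 3 of each genotype differed in clock genes, since Arntl reached 8.84 (fl/fl 3) and 13.7 FPKM (cKO 3) but was no higher than 1.36 FPKM in the others. Heart muscle markers were abundant in all hearts, with the cardiac myosin gene Myh6 between 1866 and 3996 FPKM.

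Across the 35 genes, levels ran from 0.021 FPKM (Oas3 in fl/fl 2) to 74.1 FPKM (Bst2 in cKO 3), so most were low to moderate. Interferon-response genes read higher in cKO hearts for the most part, and by modest amounts. Of the 32 genes with a mean of at least 1 FPKM, 30 had a positive and 2 a negative difference, where 49.6% of the 12103 genes tested were positive. Their median difference was 0.36 on the log2(FPKM + 1) scale, against -0.00 over all genes tested. None of the 32 passed limma with Benjamini-Hochberg adjustment over all genes, where 0.364% of all genes were called higher and 0.223% lower, and adjusted p-values of the 32 ran from 0.0775 to 0.987. At an unadjusted p under 0.05, 15 of the 32 were higher and 0 lower, against 6.34% of all genes higher and 6.37% lower. All 3 cKO values lay above all 3 fl/fl values for 15 of the 32, against 10.1% of all genes tested, and for 0 of the 32 below them, against 10.3%. In the authors' deposited table, 7 of the 33 tested members were called higher and 0 lower, where 1.68% of 12587 genes were called higher and 2.08% lower. The 3 genes under 1 FPKM on average (Mx1, Oas3 and Oasl1) were left out of the limma fit and are given below by their values.

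**Figure D1:**
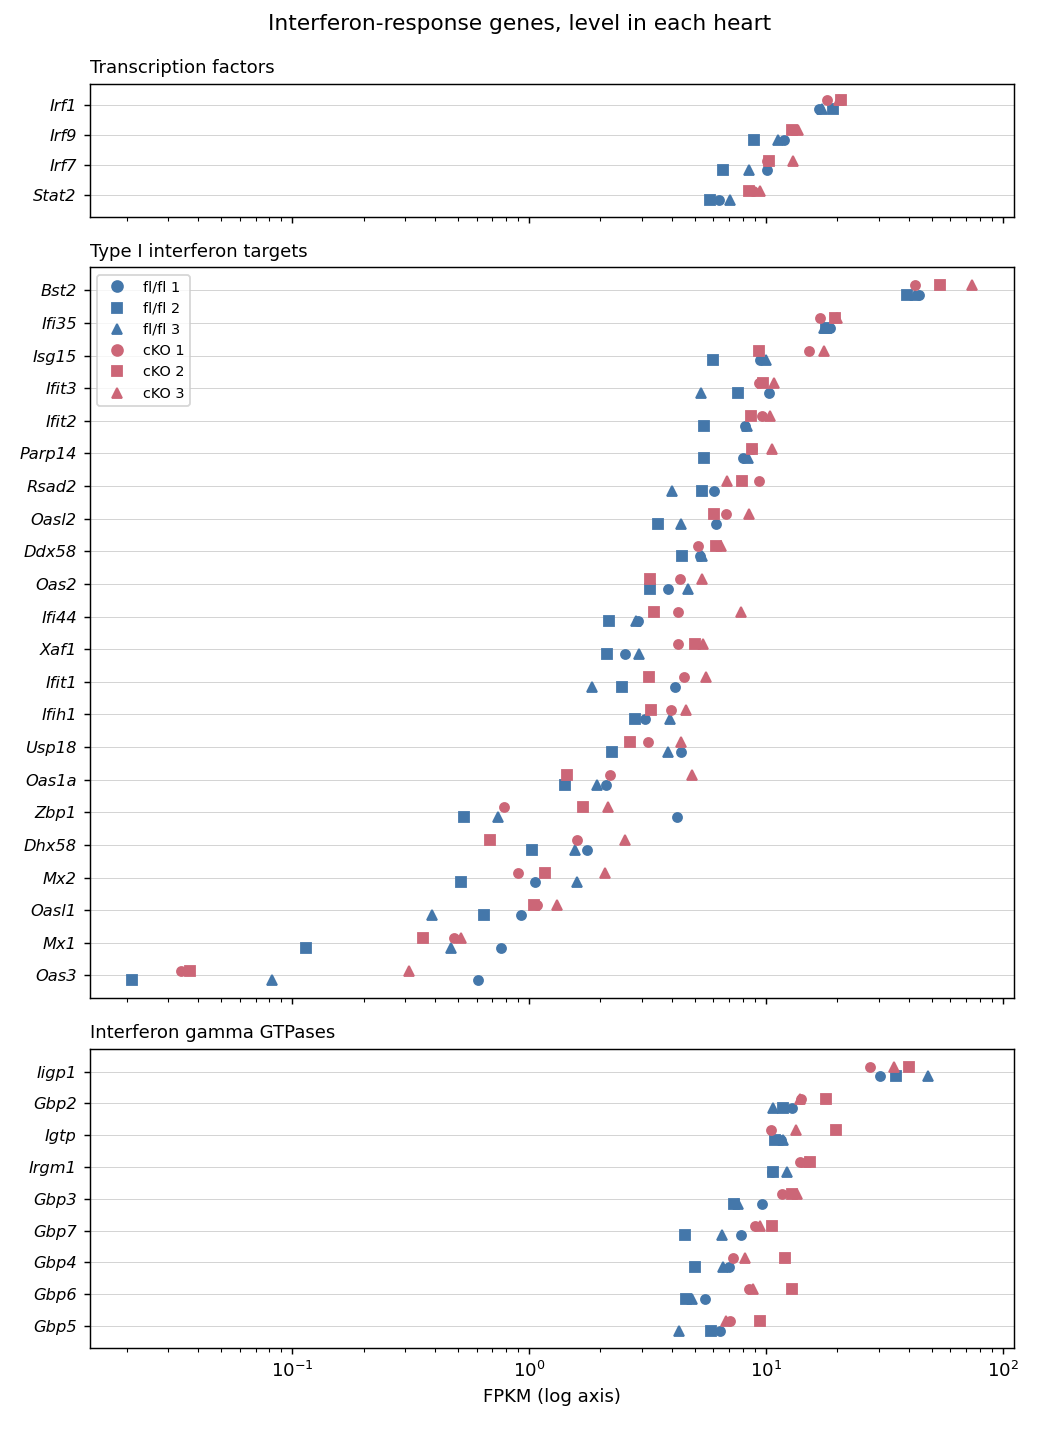
FPKM on a log axis for each of the 35 genes, with 1 symbol per heart (blue fl/fl, red cKO; circle, square and triangle for replicates 1, 2 and 3). The red points lie to the right of all blue points for the 6 Gbp genes, Irgm1, Stat2, Irf7, Irf9, Xaf1, Ifi44, Rsad2, Ifit2, Parp14 and Oasl1, and mix with them for the others.

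The transcription factors were expressed in every heart. Stat2, a signal transducer of the type I response, read 6.33, 5.8 and 7.07 FPKM in fl/fl 1 to 3, against 8.85, 8.46 and 9.43 in cKO 1 to 3. The groups did not overlap, and the difference was 0.42 (SE 0.11; limma adjusted p = 0.172). Irf9, the DNA-binding partner of STAT2, read 11.9, 8.94 and 11.3 FPKM in fl/fl, against 12.9, 12.8 and 13.7 in cKO (difference 0.28, SE 0.12; limma adjusted p = 0.382). Irf7, the factor that amplifies interferon production, read 10.1, 6.57 and 8.51 FPKM in fl/fl, against 10.1, 10.3 and 13 in cKO (difference 0.38, SE 0.16; limma adjusted p = 0.386). For Irf7 the highest fl/fl heart and the lowest cKO heart were nearly level. Without fl/fl 2, the lowest heart for each, the difference was 0.17 for Irf9 and 0.24 for Irf7. Irf1, a factor induced mainly by interferon gamma, read 16.7, 19.2 and 17.2 FPKM in fl/fl, against 18.2, 20.7 and 20.4 in cKO, with overlapping groups (difference 0.15, SE 0.10; limma adjusted p = 0.553). An exact two-sided permutation test returned p = 0.1 for each gene without overlap, and 3 against 3 cannot give a smaller p.

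Type I targets varied widely in their differences. Of the 19 tested, 18 had a positive difference (median 0.35). At an unadjusted p under 0.05, 5 were higher (6.34% of all genes tested), and 5 had all cKO values above all fl/fl values (10.1%). Xaf1, a proapoptotic partner of the inhibitor XIAP, had the largest difference of the group. It read 2.55, 2.13 and 2.91 FPKM in fl/fl 1 to 3, against 4.23, 5.03 and 5.44 in cKO 1 to 3, a ratio of means of 1.94 (difference 0.74, SE 0.14; limma adjusted p = 0.0842). Every cKO heart was well above the fl/fl range, and the authors' deposited table gave q = 0.011. With replicate 3 of each genotype as a term in the fit, the limma adjusted p of Xaf1 was 0.0412, and 123 genes were called in place of 71. Of the 16 alternative settings that held Xaf1, 2 called it, and its limma adjusted p ran up to 0.322. Ifi44, an interferon-induced antiviral protein, read 2.88, 2.17 and 2.82 FPKM in fl/fl, against 4.27, 3.36 and 7.81 in cKO, a ratio of 1.96 (difference 0.70, SE 0.25; limma adjusted p = 0.308; q = 0.00522 in the authors' deposited table). The cKO 3 heart stood far above the other cKO hearts. Without cKO 3 the difference of Ifi44 was 0.41. Rsad2, which encodes viperin, an enzyme that makes a chain-terminating nucleotide, read 6.03, 5.39 and 4 FPKM in fl/fl, against 9.34, 7.9 and 6.85 in cKO (difference 0.56, SE 0.16; limma adjusted p = 0.228; q = 0.0143 in the authors' deposited table). Here cKO 1 was the highest heart and cKO 3, which was highest for Ifi44, the lowest of its group.

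The ubiquitin-like modifier Isg15 read 9.41, 5.97 and 9.99 FPKM in fl/fl, against 15.2, 9.33 and 17.6 in cKO (difference 0.66, SE 0.25; limma adjusted p = 0.339). The cKO 1 and cKO 3 hearts were high, whereas cKO 2 lay within the fl/fl range. Usp18, the protease that removes ISG15 and restrains the type I receptor, read 4.36, 2.25 and 3.87 FPKM in fl/fl, against 3.19, 2.68 and 4.39 in cKO, with a difference of -0.01 (SE 0.22; limma adjusted p = 0.987). Bst2, which encodes tetherin, the protein that holds budding virus at the cell surface, had the highest level of the 35 genes. It read 44.3, 39.3 and 42.4 FPKM in fl/fl, against 42.8, 54.2 and 74.1 in cKO (difference 0.40, SE 0.18; limma adjusted p = 0.412). The fl/fl hearts were close together, and cKO 1 lay among them. Without cKO 3 the difference of Bst2 was 0.19. Parp14, a mono-ADP-ribosyltransferase, read 7.99, 5.48 and 8.43 FPKM in fl/fl, against 8.72, 8.72 and 10.6 in cKO, with groups that did not overlap (difference 0.33, SE 0.16; limma adjusted p = 0.428) and a difference of 0.16 without fl/fl 2. Ifi35, an interferon-induced leucine zipper protein, was nearly level at 18.6, 17.8 and 17.5 FPKM in fl/fl, against 16.9, 19.6 and 20 in cKO (limma adjusted p = 0.827).

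The IFIT proteins bind viral RNA ends and block translation. Ifit2 read 8.16, 5.46 and 8.33 FPKM in fl/fl, against 9.58, 8.67 and 10.4 in cKO, without overlap (difference 0.36, SE 0.16; limma adjusted p = 0.399), and without fl/fl 2 its difference was 0.19. Ifit3 read 10.3, 7.63 and 5.3 FPKM in fl/fl, against 9.33, 9.75 and 10.9 in cKO, with fl/fl 1 above cKO 1 and cKO 2 (limma adjusted p = 0.47). Ifit1 read 4.14, 2.46 and 1.84 FPKM in fl/fl, against 4.53, 3.22 and 5.59 in cKO (limma adjusted p = 0.413). All IFIT genes were highest in cKO 3, and the fl/fl 1 heart read high for Ifit1 and Ifit3. Without fl/fl 3, their lowest heart, the difference of Ifit1 was 0.35 in place of 0.54 and that of Ifit3 0.15 in place of 0.37. Several members of the OAS family, though not all, sense double-stranded RNA and activate RNase L. Oasl2 read 6.15, 3.49 and 4.38 FPKM in fl/fl, against 6.8, 6.06 and 8.51 in cKO (difference 0.53, SE 0.19; limma adjusted p = 0.309). Oas1a read 2.1, 1.41 and 1.94 FPKM in fl/fl, against 2.19, 1.44 and 4.88 in cKO, so that a single heart, cKO 3, stood apart, and without it the difference was -0.01 in place of 0.35. Oas2 read 3.86, 3.23 and 4.7 FPKM in fl/fl, against 4.34, 3.25 and 5.37 in cKO, with overlapping groups (limma adjusted p = 0.848). Oasl1 lay under the filter at 0.92, 0.643 and 0.389 FPKM in fl/fl, against 1.08, 1.05 and 1.31 in cKO.

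The 4 sensors of nucleic acid had the smallest median difference of the roles, at 0.12. Ddx58, which encodes RIG-I, read 5.27, 4.41 and 5.35 FPKM in fl/fl, against 5.17, 6.18 and 6.49 in cKO (difference 0.21, SE 0.12; limma adjusted p = 0.519). Ifih1, which encodes MDA5, read 3.1, 2.81 and 3.95 FPKM in fl/fl, against 3.99, 3.29 and 4.62 in cKO (difference 0.21, SE 0.15; limma adjusted p = 0.592). Without fl/fl 2 each of these differences was 0.13, and without cKO 3 that of Ifih1 was 0.12. Both genes had overlapping groups, as did Dhx58 (LGP2, a regulator of the other two), which ranged from 0.681 FPKM in cKO 2 to 2.53 FPKM in cKO 3. Zbp1, a sensor of Z-form nucleic acid that triggers necroptosis, read 4.21 FPKM in fl/fl 1 and 0.532 to 2.15 FPKM in the other hearts. The heart with high Zbp1 was the one with the thymocyte markers and the highest adipocyte markers, and it also held lung markers. The part of any of those cells was not tested. Mx1 and Oas3, each under the filter, were also highest in fl/fl 1, at 0.763 and 0.611 FPKM. Inbred strains such as C57BL/6 are known to carry a truncated Mx1. Its neighbour Mx2 read 1.06, 0.514 and 1.6 FPKM in fl/fl, against 0.898, 1.17 and 2.09 in cKO (difference 0.22, SE 0.26; limma adjusted p = 0.767), and its difference was 0.01 without fl/fl 2 and also without cKO 3.

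Interferon gamma GTPases read higher in cKO hearts with 1 exception, Iigp1. Of the 9, 8 had a positive difference (median 0.43). At an unadjusted p under 0.05, 7 were higher (6.34% of all genes tested), and 7 had all cKO values above all fl/fl values (10.1%). The authors' deposited table called 4 higher, where it called 1.68% of its tested genes higher. Guanylate-binding proteins coat the vacuoles of intracellular microbes, and all 6 listed members were without overlap. Gbp6 had the largest difference of all 35 genes. It read 5.53, 4.6 and 4.86 FPKM in fl/fl 1 to 3, against 8.52, 12.9 and 8.83 in cKO 1 to 3, a ratio of means of 2.02 (difference 0.87, SE 0.16; limma adjusted p = 0.0775; q = 0.00301 in the authors' deposited table). The fl/fl hearts were close together, and cKO 2 was clearly the highest. Gbp3 read 9.63, 7.34 and 7.62 FPKM in fl/fl, against 11.7, 12.9 and 13.5 in cKO, a ratio of 1.55 (difference 0.58, SE 0.12; limma adjusted p = 0.114; q = 0.0201 in the authors' deposited table). Its cKO hearts were similar to each other. Gbp7 read 7.83, 4.55 and 6.55 FPKM in fl/fl, against 8.98, 10.6 and 9.44 in cKO (difference 0.57, SE 0.17; limma adjusted p = 0.249; q = 0.00752 in the authors' deposited table). Gbp4 read 6.98, 5.03 and 6.56 FPKM in fl/fl, against 7.29, 12 and 8.14 in cKO (difference 0.48, SE 0.19; limma adjusted p = 0.36; q = 0.0257 in the authors' deposited table), with cKO 1 just above fl/fl 1 and a difference of 0.29 without cKO 2.

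Gbp2, the guanylate-binding protein with the highest level, read 12.9, 11.8 and 10.8 FPKM in fl/fl, against 14.1, 17.9 and 13.9 in cKO (difference 0.34, SE 0.12; limma adjusted p = 0.32). Gbp5, which promotes inflammasome assembly, read 6.37, 5.89 and 4.29 FPKM in fl/fl, against 7.06, 9.41 and 6.8 in cKO (difference 0.43, SE 0.17; limma adjusted p = 0.358). The cKO 2 heart was the highest for each, and without fl/fl 3 the difference of Gbp5 was 0.29. The files place Gbp2, Gbp3, Gbp5 and Gbp7 in 1 cluster on chromosome 3 and Gbp4 and Gbp6 in another on chromosome 5, and the genes of a cluster are similar enough that reads may be split among them or shared with listed neighbours such as Gbp9. Immunity-related GTPases, the second family, act on the same vacuoles and on autophagy, and were less uniform. Irgm1, a regulator of the family, read 10.6, 10.7 and 12.3 FPKM in fl/fl, against 13.9, 15.4 and 14.7 in cKO, tight within each genotype and without overlap (difference 0.37, SE 0.10; limma adjusted p = 0.205). Igtp (IRGM3) read 11.6, 10.9 and 11.8 FPKM in fl/fl, against 10.5, 19.8 and 13.4 in cKO, so that cKO 1 lay below all fl/fl hearts and cKO 2 far above them (difference 0.28, SE 0.19; limma adjusted p = 0.571). Its difference was 0.05 without cKO 2 and 0.48 without cKO 1. Iigp1 (IRGA6), the most abundant GTPase, went the other way at 30.4, 35.4 and 48.2 FPKM in fl/fl, against 27.5, 40.2 and 34.6 in cKO (difference -0.14, SE 0.19; limma adjusted p = 0.786).

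**Figure D2:**
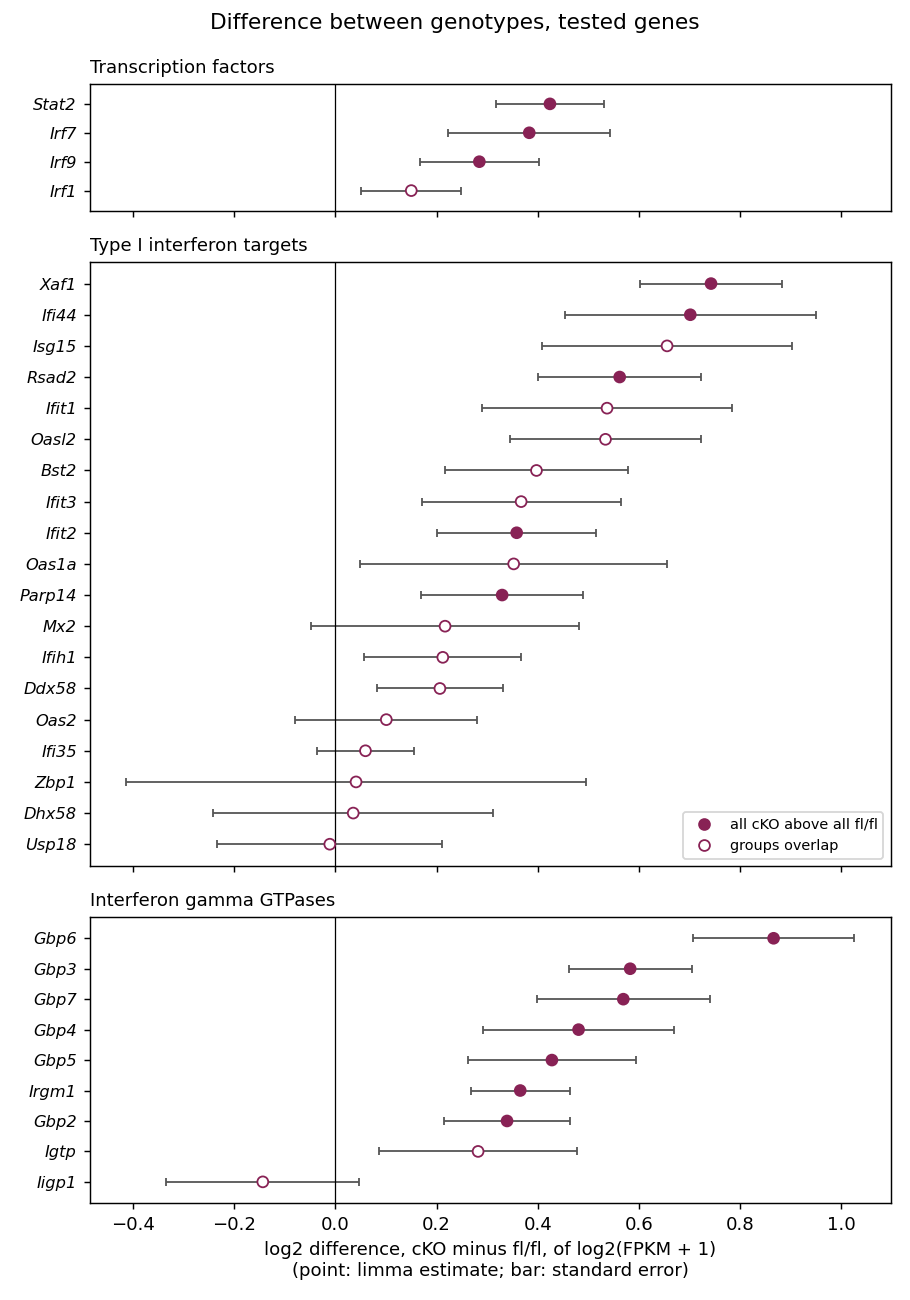
Difference between genotypes (cKO minus fl/fl, log2(FPKM + 1) scale) for the 32 tested genes, with the limma estimate as a point and its standard error as a bar; filled points have all cKO values above all fl/fl values. Gbp6 (0.87) and Xaf1 (0.74) lie farthest right, and Iigp1 (-0.14) and Usp18 (-0.01) are the points below 0.

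Set side by side, the GTPases and the type I targets differed in which heart was highest. Of the 9 GTPases, 7 were highest in cKO 2, a heart that was highest for 10.7% of all genes tested, and 1 was highest in cKO 3. Of the 22 type I targets, 18 were highest in cKO 3, the highest heart for 20.1% of all genes tested, and 0 in cKO 2. Among the cKO hearts alone, cKO 2 was the highest for 8 of the 9 GTPases (31.7% of all genes tested) and cKO 3 for 21 of the 22 type I targets (37.3%). The factors followed the type I targets, with Stat2, Irf7 and Irf9 highest in cKO 3 and Irf1 in cKO 2. The median deviation from the fl/fl mean on the log2(FPKM + 1) scale was 0.30, 0.69 and 0.36 for the GTPases in cKO 1 to 3, and 0.21, 0.18 and 0.49 for the type I targets. In fl/fl 1 to 3 these medians were 0.13, -0.07 and 0.04 for the GTPases and 0.16, -0.21 and 0.07 for the type I targets, so that for the type I targets fl/fl 1 and cKO 2 were nearly level. At the low end, 16 of the 22 type I targets and 4 of the 9 GTPases had their minimum in fl/fl 2, the lowest heart for 23.3% of all genes tested. These are single hearts, so the pattern has no replicate, and the difference between the groups of genes was not tested.

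**Figure D3:**
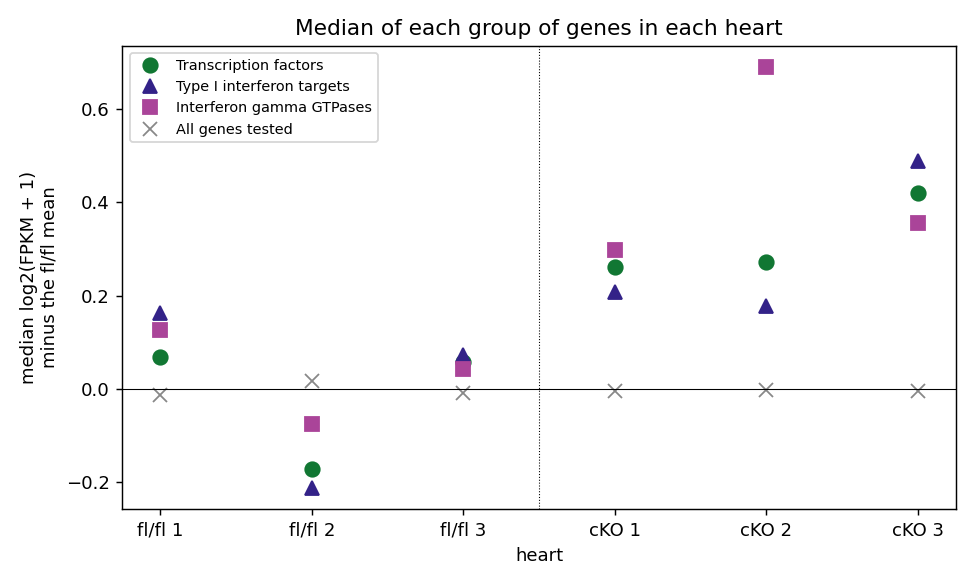
Median deviation of each group of genes from its fl/fl mean (log2(FPKM + 1) scale) in each of the 6 hearts. Interferon gamma GTPases (squares) peak in cKO 2 at 0.69, type I targets (triangles) in cKO 3 at 0.49, factors (circles) in cKO 3 at 0.42, and all genes tested (crosses) stay near 0.

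**Figure D4:**
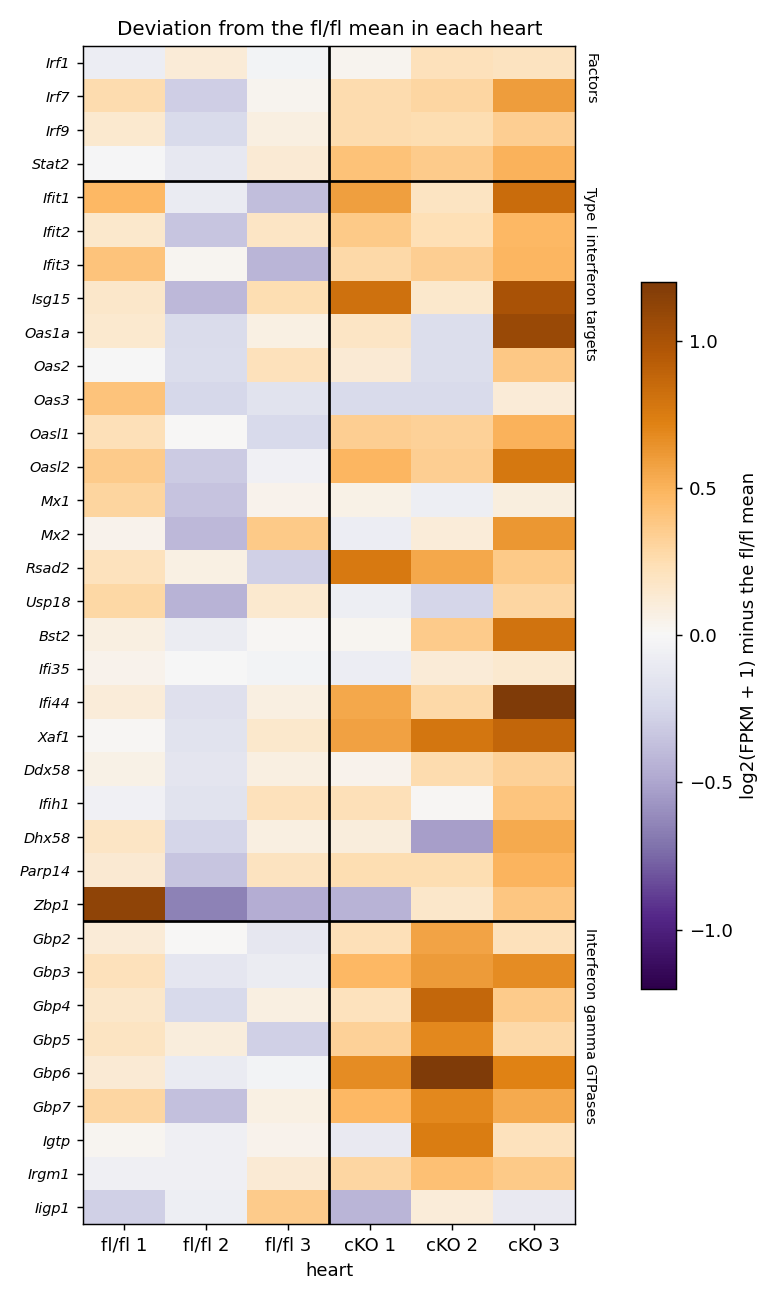
Deviation of each gene from its fl/fl mean in each heart (orange above, purple below, log2(FPKM + 1) scale), in rows by group. The cKO 3 column is orange through most type I targets and the cKO 2 column through most GTPases, and Zbp1 stands out in fl/fl 1.

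The type I median and the GTPase median each moved when a single heart was left out, and the sizes of these moves were not compared by a test. Between hearts of the same genotype, the median deviation of the tested genes had a pooled SD of 0.178 for type I targets and 0.166 for GTPases. The type I median was 0.19 without cKO 3 and also 0.19 without fl/fl 2, against 0.35 with all hearts. It was 0.38 without cKO 2, and within replicates 1 and 2 alone it was 0.20. The GTPase median was 0.30 without cKO 2, 0.36 without fl/fl 2 and 0.48 without cKO 1, against 0.43 with all hearts. Within replicates 1 and 2 alone it was 0.43.

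Markers of other cell types were read beside these values. The summed level of 8 endothelial markers ran from 361.4 to 392.3 FPKM in fl/fl hearts and from 448.4 to 569.5 in cKO hearts. For 6 of the 8, cKO 3 was the highest heart (20.1% of all genes tested). Endothelial markers had a median difference of 0.38 (0.36 for the interferon-response genes). Of the 8, 6 had all cKO values above all fl/fl values (10.1% of all genes tested). For 6 fibroblast markers the sums ran from 751.8 to 858.8 FPKM in fl/fl hearts and from 914.5 to 995.6 in cKO hearts (median difference 0.22). The cKO 3 heart was the highest for all 6 (20.1% of all genes tested). Of the 6, 3 had all cKO values above all fl/fl values (10.1%). Macrophage markers (8 genes) overlapped in their sums, at 304.9 to 342.9 FPKM in fl/fl, against 283.9 to 336.4 in cKO (median difference -0.02). Of the 8, 1 (C1qa) had all cKO values below all fl/fl values. Ventricular muscle markers (7 genes) summed to less in every cKO heart, at 57533 to 78367 FPKM in fl/fl, against 37001 to 41635 in cKO. Of the 7, 6 had all cKO values below all fl/fl values (10.3% of all genes tested). The exception, Actc1, had all cKO values above all fl/fl values. Of 4 atrial muscle markers, 3 (Myl7, Sln and Myl4) had all cKO values below all fl/fl values (10.3%) and Nppa overlapped. The 4 had a median difference of -2.53. Their sum, of which Nppa was the largest term, was 3481 to 6150 FPKM in fl/fl, against 1192 to 4164 in cKO. T and NK cell markers (7 genes) summed to 41.2 FPKM in fl/fl 1 and 1.64 to 4.44 FPKM in the other hearts. The T cell genes Cd3e, Cd3d, Cd8a and Cd4 made that gap, at 7.01 to 12.3 FPKM in fl/fl 1 and no higher than 0.869 FPKM in the others, while Nkg7, Klrb1c and Gzma did not exceed 2.17 FPKM in any heart. The B cell markers (4 genes) summed to 3.07 to 7.28 FPKM in fl/fl, against 3.27 to 6.15 in cKO. The plasmacytoid dendritic cell markers (3 genes) summed to 6.17 FPKM in fl/fl 1 and to 0.434 FPKM or less in the others. Most of the fl/fl 1 sum was Ccr9 (5.13 FPKM), with Siglech at 0.651 and Klk1 at 0.384 FPKM. That heart was also the one with the thymocyte markers, so the sum does not show that it held plasmacytoid dendritic cells. The part of any of these cell types in the interferon-response values was not tested.

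The rest of the pathway was read from a list of 80 further genes, of which 63 were tested and 0 passed limma over all genes. At an unadjusted p under 0.05, 13 of the 63 were higher and 1 lower, against 6.34% and 6.37% of all genes tested. The interferons themselves lay at or near the lowest value of the table. Of 21 rows of interferon ligands in the table, among them Ifnb1, Ifng and the numbered Ifna genes, 20 were listed at 0.01 FPKM in every heart, the value that stands in place of 0, and Ifnz reached 0.201 FPKM in its highest heart. The cytokine Il6, also on the list, reached 0.193 FPKM. At unknown depth, this does not show that the ligands were absent. Receptors, by contrast, were well expressed and nearly level. Ifnar1 read 7.39, 5.61 and 6.69 FPKM in fl/fl, against 7.49, 6.71 and 8.19 in cKO. Ifnar2 read 32.3, 33.1 and 31 FPKM in fl/fl, against 35.6, 38 and 38.8 in cKO, without overlap (difference 0.21, SE 0.08; limma adjusted p = 0.366). The interferon gamma receptor chains were the most abundant of the 4, with Ifngr1 at 43.9 ± 7.77 FPKM in fl/fl against 46.5 ± 1.57 in cKO, and Ifngr2 at 146.8 ± 5.33 FPKM against 143.8 ± 3.95 (SD, n = 3).

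The 9 signalling genes and the 4 further factors each had a median difference of -0.10, and the 9 tested sensing genes one of 0.07, while 37 other interferon targets had a median of 0.25 with 33 positive and 4 negative. The authors' deposited table called 2 of the 64 listed genes it tested, each higher, where 1.68% of all genes were called higher. Irgm2, a further immunity-related GTPase, read 8.37, 6.75 and 10.1 FPKM in fl/fl, against 11, 18.5 and 13.5 in cKO (difference 0.69, SE 0.20; limma adjusted p = 0.228; q = 0.00301 in the authors' deposited table). The cKO 2 heart was the highest for Irgm2. Of the 45 other targets listed, 8 were highest in cKO 2 and 18 in cKO 3 (10.7% and 20.1% of all genes tested). Lgals3bp, a secreted galectin-binding glycoprotein, read 24.6, 13.8 and 19.8 FPKM in fl/fl, against 28, 24.6 and 33.3 in cKO, where cKO 2 touched the fl/fl range (difference 0.56, SE 0.20; limma adjusted p = 0.312; q = 0.00936 in the authors' deposited table).

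**Figure D5:**
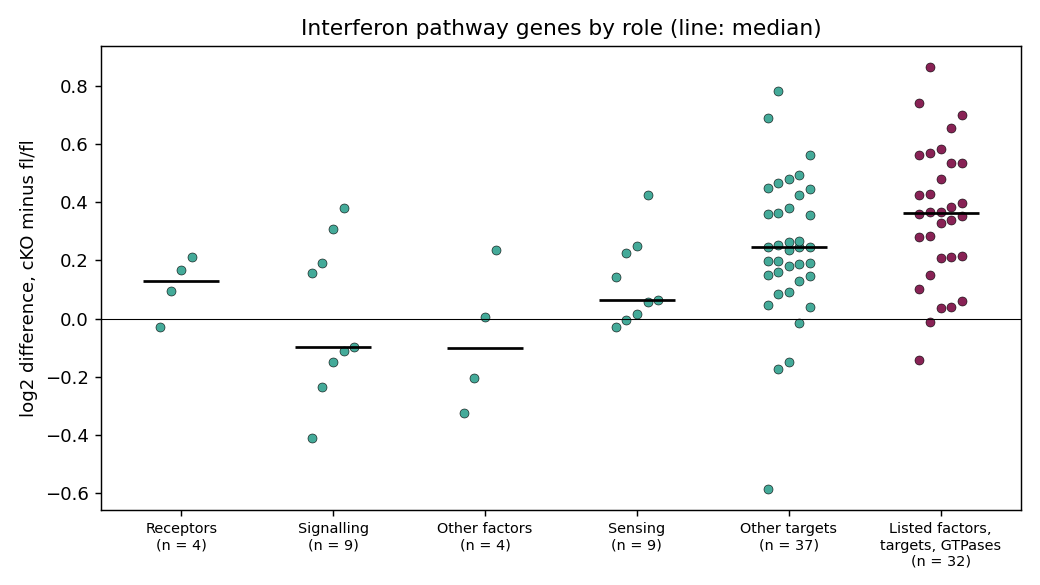
Difference between genotypes (cKO minus fl/fl, log2(FPKM + 1) scale) for tested genes of the pathway, with 1 point per gene and a line at the median of each role. Medians were 0.13 for 4 receptors, -0.10 for 9 signalling genes, 0.07 for 9 sensing genes 0.25 for 37 other targets and -0.10 for 4 further factors, against 0.36 for the 32 listed interferon-response genes.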

How the data were processed

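Whole-heart RNA from 6 mice, 3 per genotype, was compared, with groups and numbers from the sample titles. Alignment was by TopHat (1.0.0), and FPKM and group comparisons came from Cufflinks and Cuffdiff, per the submitters' processing notes. The authors deposited FPKM with 0 replaced by 0.01, and, per the file headers, p-values, q-values and log2 fold change of cKO over fl/fl. The notes name mm10, but only 1 of the 35 genes overlapped its GRCm38.p6 position, so file coordinates are not printed. The labels' protocols name a TruSeq RNA kit and the design text calls the libraries stranded; the use of strand in counting is not stated, so reads of overlapping antisense genes may be mixed.

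No count model was applied to FPKM. Differences were tested on log2(FPKM + 1) in the whole table with limma 3.58.1 (R 4.3.3; eBayes with trend; two-sided tests). The filter, a mean of 1 FPKM or more, left 12103 genes, p-values were adjusted over them by Benjamini-Hochberg, and calls were made under 0.05, as were those from the authors' q-values; fold changes on this scale understate low genes. Genes and lists were chosen with earlier results of these data known. All 35 members are accounted for; values per heart are given by the rule of authors' calls, non-overlap, factors and the 2 highest genes of each role, and Isg15, Usp18, Ifit1, Oas1a, Mx1, Mx2, Oas3, Dhx58 and Zbp1 were added after their values were seen. Of the 80 pathway genes, receptors, ligands and the authors' calls are named, and a gene that the rule also names is not reported here; Tgtp2 had different positions in the deposited tables. Each genotype has 3 hearts, per the design text. Figures used matplotlib 3.10.9 in Python 3.11.15. 1 row with a failed value was left out.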

Additional observations from a re-analysis of the deposited data

How the results depend on the processing

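The count of listed genes called by limma was 0 with all hearts and 0 in each fit without 1 heart, and the same with other pseudocounts, filters and scalings. It was 1 of 32 with a term for replicate 3 (Xaf1), where 123 of 12103 genes were called, and 7 of 33 by the authors' deposited q-values. With the replicate number as a block, 4 of 32 were called (Isg15, Rsad2, Xaf1 and Gbp6), where 213 of 12103 genes were called in place of 71. The correlation of deviations between hearts of the same number was 0.0890, 0.271 and 0.429 for replicates 1 to 3. Each fl/fl heart correlated best with the cKO heart of its number, but cKO 1 correlated better with fl/fl 2 (0.152). Whether the numbers pair the hearts is therefore not settled, and the main fit used no block. Median differences ran from 0.292 to 0.431 without 1 heart for all listed genes, from 0.186 to 0.436 for type I targets and from 0.297 to 0.524 for GTPases. Type I targets had a median of 0.22 with array weights and 0.23 with a pseudocount of 5, and GTPases 0.28 with the latter. The sign turned with array weights for Oas2 (-0.014), Dhx58 (-0.16) and Zbp1 (-0.21), with a pseudocount of 5 and with quantile normalization for Zbp1 (-0.027 and -0.015), and within replicates 1 and 2 for Iigp1 (0.020), Dhx58 (-0.18) and Zbp1 (-0.37). Without 1 heart the difference ran across 0 from -0.22 to 0.32 for Dhx58, from -0.29 to 0.038 for Iigp1, from -0.0057 to 0.63 for Oas1a, from -0.039 to 0.25 for Oas2, from -0.23 to 0.13 for Usp18 and from -0.28 to 0.60 for Zbp1. The count of listed genes with all cKO values above all fl/fl values was 15 with all hearts and 15 to 20 without 1 heart, where such separation held for 10.1% of all genes with all hearts and for 13.9% to 16.6% without 1. The causes were not tested. Depth is unknown, so no counting interval is given for the low genes.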
